A study of Mus musculus with 20 samples.

Results

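The genes described here are 10 genes of the integrated stress response, followed across mouse cells in which the circadian activators CLOCK and BMAL1 were switched on: Atf4, Ddit3, Asns, Chac1, Trib3, Sesn2, Ddit4, Gdf15, Stc2 and Vldlr. Their rows were picked by gene symbol, and all 10 were found among the 55421 transcripts of the ESC and iPSM tables. The genes were chosen with earlier results of these data known. Shares of members that passed, given below, therefore describe these 10 genes and are no independent test. Ddit3 had 2 rows, of which the row with 6624 counts over all libraries was used and the nested row with 3032.5 was not. Each of the other genes had 1 row.

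Libraries of total RNA came from mouse embryonic stem cells (ESC) and from induced presomitic mesoderm (iPSM), colonies grown from stem cells that resemble the tissue from which somites form. The ESC lines derive from KY1.1 cells and the iPSM lines from E14TG2a stem cells with a Hes7-promoter luciferase reporter, kept without feeder cells. In each cell type 3 kinds of line were measured without and with doxycycline (dox): a control line, clones with tetO-Clock/Bmal1, and clones with tetO-Clock/Bmal1DN, read here as a dominant-negative Bmal1. The dose was 500 ng/mL over 6 hours in ESC, and in iPSM it was 1000 ng/mL over 2 hours, so cell type, parent line, dose and time cannot be told apart. The Clock/Bmal1 clones were 1 and 7 in ESC and 12 and 20 in iPSM, the Clock/Bmal1DN clones were 5 and 6 in ESC and 7 and 19 in iPSM, and in each cell type the control line has 1 untreated and 1 treated library. The line numbers of the labels are read here as clones, each measured in 1 untreated and 1 treated library, so the 2 clones of a group are its only replicates and p-values measure only the spread between these libraries. Bulk RNA cannot tell fewer cells of a type from less RNA per cell.

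In mm10 the genes lie at chr15:80255184-80257541 (Atf4, plus strand), chr10:127290774-127296288 (Ddit3, plus), chr6:7675169-7693254 (Asns, minus), chr2:119351229-119354381 (Chac1, plus), chr2:152337422-152344032 (Trib3, minus), chr4:132492032-132510501 (Sesn2, minus), chr10:59949669-59951834 (Ddit4, minus), chr8:70629394-70632456 (Gdf15, minus), chr11:31357307-31370074 (Stc2, minus) and chr19:27217357-27254231 (Vldlr, plus). Each interval is the gene body, exons and introns together, of 1 protein-coding transcript, such as ENSMUST00000020546.2 for Stc2 and ENSMUST00000167487.7 for Vldlr.

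In the integrated stress response, kinases that sense amino acid shortage, misfolded protein, viral RNA or lack of haem phosphorylate the translation factor eIF2. General translation falls while the transcription factor ATF4 is made in larger amounts, largely by translation of mRNA already present, which RNA counts do not measure. ATF4 then acts with partners such as CHOP, the product of Ddit3, on genes for amino acid supply (Asns), glutathione breakdown (Chac1), restraint of growth signalling (Trib3, Sesn2, Ddit4), secreted factors (Gdf15, Stc2) and the lipoprotein receptor Vldlr. CLOCK and BMAL1, whose mouse genes are Clock and Arntl, instead bind E-boxes in genes such as Per1 and Dbp.

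Promoter sequences are shown for 4 genes: Stc2 and Vldlr, on which the dox results turn, and Asns and Chac1, classical ATF4 targets that hold one of the motifs searched. All 10 genes matched RefSeq promoter windows (GRCm38.p6), 12 in all since Gdf15 and Vldlr have 2 each, and the 250 bases before the start site were searched on both strands for the E-box CACGTG, its variant CACGTT and the C/EBP-ATF core TGATGNAA, motifs that do not overlap each other. Each line below gives the gene's own strand 5′ to 3′, without bases that lie in a GENCODE exon of the gene, with matches in capitals. The stretches of Stc2, Chac1 and Asns end at the start of the transcript counted here, and that of Vldlr ends 873 bases before it. The positions are chr11:31370075-31370311 (minus strand) for Stc2, chr19:27216234-27216483 (plus) for Vldlr, chr2:119350992-119351228 (plus) for Chac1 and chr6:7693255-7693459 (minus) for Asns.
Stc2: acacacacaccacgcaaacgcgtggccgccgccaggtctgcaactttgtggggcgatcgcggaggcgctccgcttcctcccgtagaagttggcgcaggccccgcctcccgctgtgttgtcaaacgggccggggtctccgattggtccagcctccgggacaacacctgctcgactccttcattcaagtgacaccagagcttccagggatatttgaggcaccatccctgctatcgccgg
Vldlr: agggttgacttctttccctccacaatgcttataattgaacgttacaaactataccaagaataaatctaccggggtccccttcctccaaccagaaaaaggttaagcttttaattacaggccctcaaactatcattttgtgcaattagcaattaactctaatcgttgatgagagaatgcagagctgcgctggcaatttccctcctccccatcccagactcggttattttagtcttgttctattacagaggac
Chac1: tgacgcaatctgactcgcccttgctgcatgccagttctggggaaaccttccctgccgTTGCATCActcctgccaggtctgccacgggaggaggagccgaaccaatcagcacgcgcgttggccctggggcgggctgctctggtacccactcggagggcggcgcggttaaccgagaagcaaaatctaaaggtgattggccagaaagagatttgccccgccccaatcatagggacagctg
Asns: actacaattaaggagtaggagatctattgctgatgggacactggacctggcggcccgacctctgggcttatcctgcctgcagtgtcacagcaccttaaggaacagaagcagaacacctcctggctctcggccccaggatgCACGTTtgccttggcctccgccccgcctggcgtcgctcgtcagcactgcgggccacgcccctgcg
The Stc2 window held none of the 3 motifs. The Vldlr window printed above, before the outer of 2 RefSeq start sites, held none either, while the window of the inner site held TTGCATCA 200 to 193 bases before it. Chac1 held the same letters 193 to 186 bases before its start, and Asns held TGATGAAA 23 to 16 bases before its RefSeq start, inside the first GENCODE exon and so outside the printed stretch. The core was thus found in 3 of the 12 windows, against 3.45% of 32851 mouse windows of this length. CACGTT was found in 2 of the 12, for Asns 110 to 105 bases before the start and on the other strand for Ddit4, against 3.85%. CACGTG was found in 1 of the 12, the second window of Gdf15, against 6.02%. The start site of that window lies 361 bases downstream of the start of the transcript counted here. The second windows of Gdf15 and Vldlr both begin inside a GENCODE exon of their gene. The median GC content of the members' first windows was 61.2%, against 52.4% over all windows.

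Library totals ran from 38.2 to 57.3 M counts. In ESC the 10 stem cell markers summed to 1706 to 2456 CPM (counts scaled to library size with TMM factors) and the 10 presomitic mesoderm markers to 20.3 to 62.1. In iPSM they summed to 247 to 460 and 719 to 1425. The untreated iPSM control library stood apart, with counts over 69.4% of features against 50.2% to 54.0% in the other iPSM libraries. The untreated ESC control library also stood apart, with counts over 43.8% of features against 49.3% to 52.97% in the other ESC libraries. Arntl, counted with its transgene, went from 45.4 and 48.2 to 2203 and 4135 CPM in the Clock/Bmal1 clones of ESC and from 54.6 and 44.4 to 1615 and 4068 in the Clock/Bmal1DN clones. In iPSM it went from 56.5 and 77.4 to 3216 and 4702 CPM with Clock/Bmal1, but from 41.8 to 888 in Clock/Bmal1DN clone 7 and from 66.0 to 153 in clone 19. Clock rose in every transgenic clone, at least 9.09-fold in CPM.

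Without dox the 10 genes spanned more than 3 orders of magnitude in ESC. Levels between genes are given as the deposited RPKM, reads scaled by gene body length (introns included) and by depth, over the 5 untreated libraries of a cell type. Atf4 stood highest in ESC at 94.2 ± 3.86 RPKM (SD, n = 5), followed by Asns, asparagine synthetase, at 15.1 ± 1.34. Ddit4, which restrains mTORC1, stood at 4.15 ± 0.561, Sesn2, a leucine-sensing inhibitor of the same complex, at 2.86 ± 0.282, and Trib3, a pseudokinase, at 2.23 ± 0.531. Ddit3 at 0.975 ± 0.245, Chac1, which breaks down glutathione, at 0.720 ± 0.221, the secreted glycoprotein gene Stc2 at 0.378 ± 0.0750 and the cytokine gene Gdf15 at 0.269 ± 0.0559 followed. Vldlr stood last at 0.0545 ± 0.0322 RPKM, and its gene body holds the most intron sequence by length. In this order Sesn2 and Trib3, Ddit3 and Chac1, Chac1 and Stc2, and Stc2 and Gdf15 had overlapping ranges, and the other neighbours did not.

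In iPSM the order was Atf4 (52.0 ± 15.3 RPKM), Ddit4 (40.4 ± 7.15), Asns (20.5 ± 4.72), Sesn2 (3.66 ± 0.556), Ddit3 (1.56 ± 0.143), Chac1 (1.43 ± 0.423), Stc2 (0.954 ± 0.251), Vldlr (0.880 ± 0.172), Trib3 (0.720 ± 0.125) and Gdf15 (0.117 ± 0.0342). Ranges overlapped between Atf4 and Ddit4 and between each neighbour from Ddit3 to Trib3. Ddit4 stood second there, and Vldlr eighth.

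**Figure D1:**
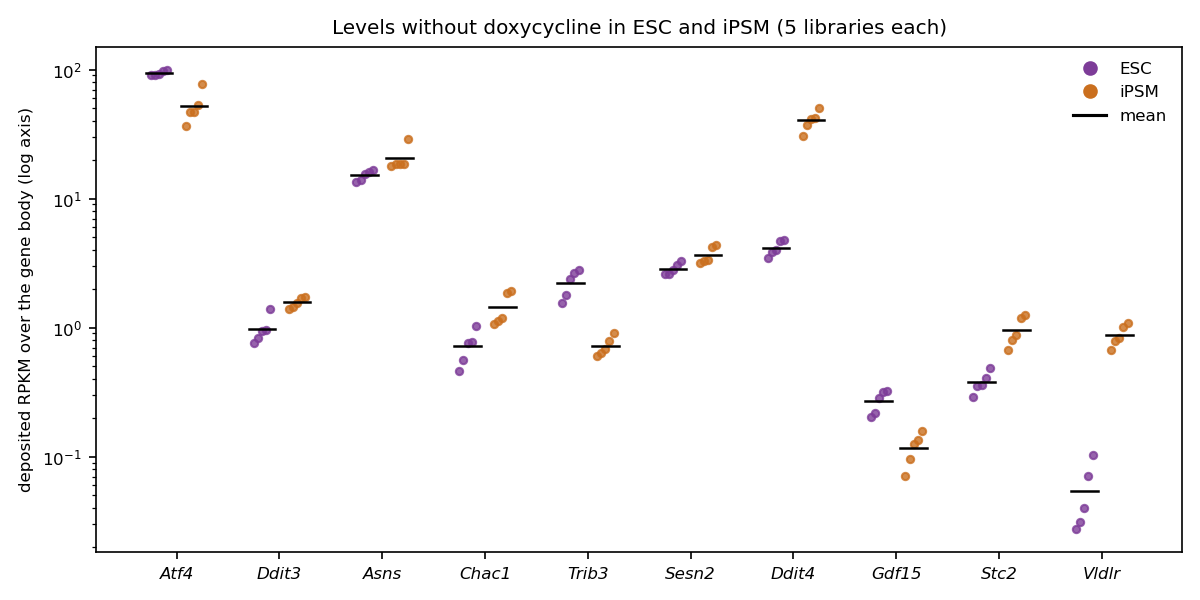
Deposited RPKM of the 10 genes (log axis) in the 5 untreated ESC and 5 untreated iPSM libraries, 1 point per library with a bar at the mean. Asns, Chac1, Ddit3, Ddit4, Stc2 and Vldlr stand higher in every iPSM library than in any ESC library, Atf4, Trib3 and Gdf15 lower, and the ranges of Sesn2 overlap. The ranges nearly meet for Ddit3 (up to 1.39 in ESC, from 1.40 in iPSM) and Chac1 (1.03 and 1.06). Asns and Ddit3 did not pass the test between cell types. The share of all genes that separate in this way was not computed, and 60% of the 26689 genes tested passed that test.

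The untreated cell types were compared in 1 fit of all 20 libraries, from the 4 untreated transgenic clones of each. Vldlr and Ddit4 were the members with the largest difference: Vldlr was 12.6-fold higher in iPSM (log2 difference 3.65 ± 0.350, SE, adjusted p = 4.00e-07, edgeR) and Ddit4 8.36-fold higher (3.06 ± 0.226, adjusted p = 2.83e-08). Stc2 was higher by 1.16 ± 0.223 (adjusted p = 0.000356) and Chac1 by 0.859 ± 0.299 (adjusted p = 0.0213). Trib3 was lower, at -1.76 ± 0.230 (adjusted p = 9.05e-06), as were Gdf15 at -1.35 ± 0.359 (adjusted p = 0.00422) and Atf4 at -1.08 ± 0.177 (adjusted p = 8.29e-05). Ddit3 (0.492), Asns (0.254) and Sesn2 (0.219) did not pass, with adjusted p of 0.0599, 0.222 and 0.137. Of the 10 genes 7 passed, 4 higher and 3 lower, while 60% of the 26689 genes tested passed in this comparison, so the members' share was near that background. Of 81 further genes of the pathway that were tested, 18 were higher and 40 lower, with a median log2 difference of -0.383 against 0.0527 over all genes. The Chac1 call was lost without any 1 of 4 untreated clones (clones 1 or 6 of ESC, clones 20 or 19 of iPSM), at adjusted p from 0.0512 to 0.106. Ddit3 passed in 3 and Asns in 1 of the 16 fits that leave out a library.

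The central comparison asks which of these genes change when Clock and Bmal1 are induced. In ESC, after 6 hours, Stc2 rose 3.76-fold. Stc2 encodes stanniocalcin 2, a secreted glycoprotein that inhibits a protease of IGF-binding proteins and is an ATF4 target in stressed cells. It stood at 4.58 CPM in untreated clone 1 and 4.71 in untreated clone 7, and at 18.9 and 16.0 CPM in the same clones with dox. Both treated values lay above the other 8 ESC libraries, which ran from 3.83 to 8.70 CPM. The share of all genes that separate in this way was not computed. The log2 fold change was 1.91 ± 0.309 (SE, n = 2 clones, adjusted p = 0.0388, edgeR). The call was lost without treated clone 1 (1.79, adjusted p = 0.250), treated clone 7 (2.07, 0.0726), untreated clone 1 (1.89, 0.369), untreated clone 7 (1.93, 0.328) or treated Clock/Bmal1DN clone 6 (1.94, 0.0513).

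Of the other 9 genes none passed in ESC, so 1 of 10 was called, against 0.422% of 22500 genes (91 higher, 4 lower). Members with an unadjusted p under 0.05 numbered 3, against 7.49% of all genes, and DESeq2 called 2, among 359 genes in all. The gene with the largest difference was Vldlr, the very low density lipoprotein receptor, which takes up triglyceride-rich particles and binds reelin. It went from 1.03 to 10.9 CPM in clone 1 and from 2.702 to 12.5 in clone 7, with 0.909 to 3.96 CPM in all other ESC libraries. The treated clones lay above every other library, and the share of all genes for which this holds was not computed. The log2 fold change was 2.65 ± 0.595 (adjusted p = 0.152). With the clone as a block, Vldlr passed at 2.79 (adjusted p = 0.0288), and with DESeq2 at 2.68 (adjusted p = 4.29e-05). With 1 library left out, Vldlr ran from 2.12 to 3.51 and did not pass (adjusted p from 0.0548 to 0.739).

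Gdf15, a cytokine raised by cell stress that lowers appetite, went from 0.649 to 2.10 CPM in clone 1 and from 1.02 to 1.82 in clone 7. These rest on few reads, from 35.5 and 57 counts untreated to 92 and 75 with dox. Its log2 fold change of 1.23 ± 0.441 did not pass (adjusted p = 0.520). Sesn2 went from 48.9 to 71.2 CPM in clone 1 and from 49.96 to 56.2 in clone 7, a log2 fold change of 0.367 ± 0.183 that did not pass (adjusted p = 0.695). For Sesn2, Gdf15, Stc2 and Vldlr both treated libraries lay above both untreated ones. That was 4 of 10 genes, against 18.9% of all genes tested.

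Atf4, the factor of the response itself, went from 220 to 177 CPM in clone 1 and from 241 to 270.0 in clone 7, a log2 fold change of -0.0456 ± 0.208. Ddit3 went from 4.29 to 4.804 CPM in clone 1 and from 5.42 to 9.29 in clone 7 (0.536 ± 0.373), and Ddit4 from 7.64 to 8.14 and from 8.91 to 15.8 (0.535 ± 0.335). In both genes clone 7 carried most of the difference, and each treated range overlapped the untreated one. Asns was lower with dox in both clones, 295 to 244 and 310 to 269 CPM, at -0.238 ± 0.240. Chac1 went from 2.45 to 1.67 and from 2.54 to 3.74 CPM (0.115 ± 0.439), and Trib3 from 16.0 to 12.7 and from 10.6 to 10.2 CPM (-0.220 ± 0.357). None of these 6 had an adjusted p under 0.720. The median log2 fold change of the 10 genes was 0.451, against -0.00752 over all genes, and 7 of the 10 were positive. Fibroblast feeder markers (10 genes) summed to 407 and 587 CPM in the untreated and 681 and 615 in the treated Clock/Bmal1 clones of ESC. The same markers summed to 221 to 596 CPM in iPSM, whose lines were kept without feeders. Their sum is therefore not specific to feeder cells here, and its part in these values was not tested.

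**Figure D2:**
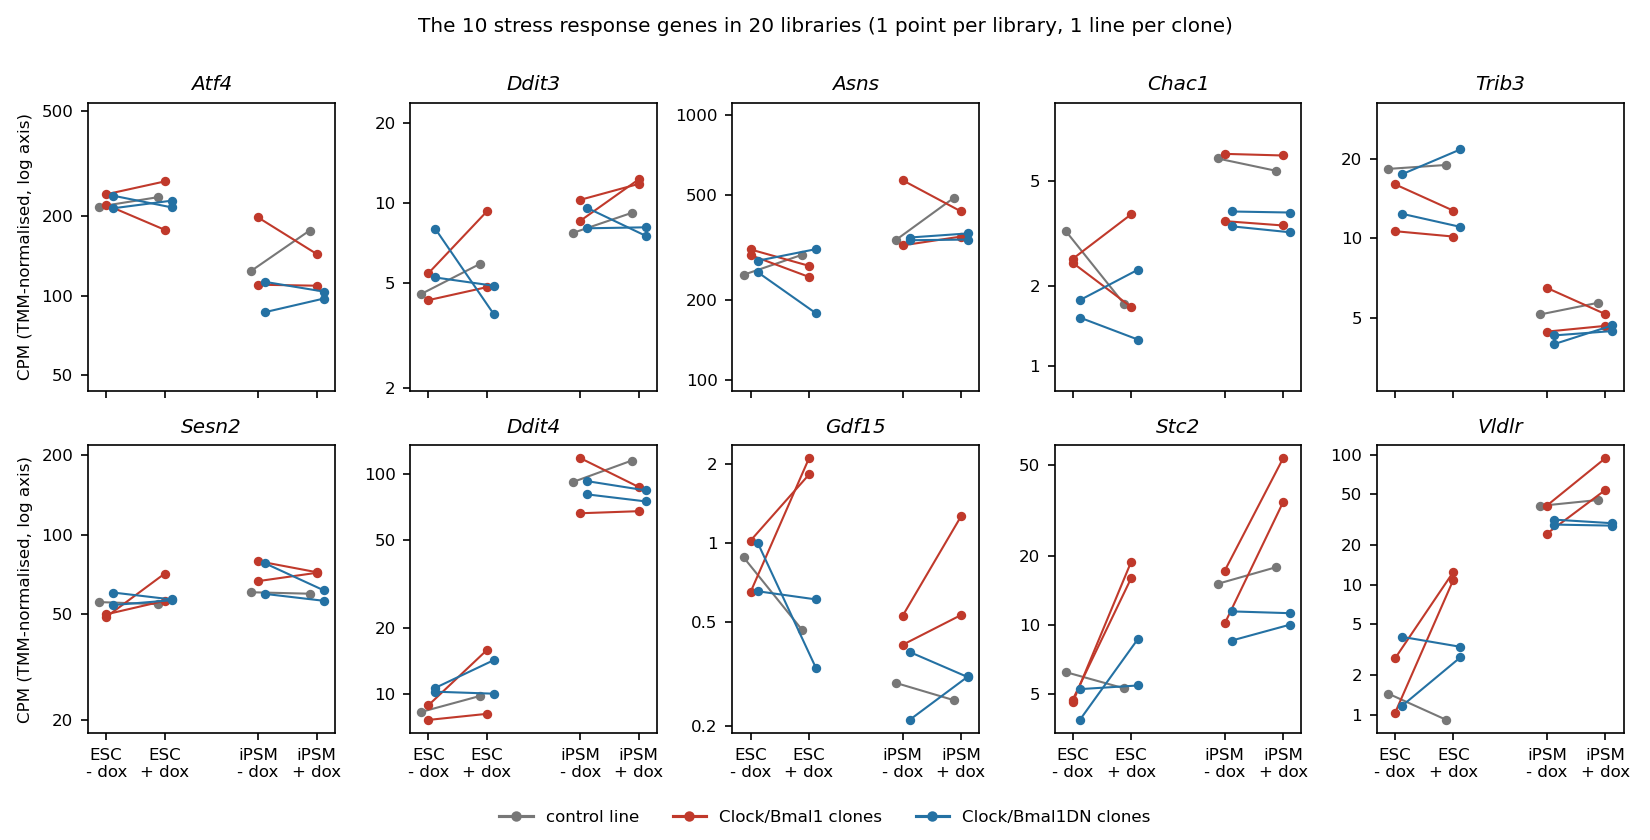
CPM (TMM-normalised, log axis, a separate scale per panel) of the 10 genes in all 20 libraries. Each line joins the untreated and the dox-treated library of 1 clone, in grey for the control line, red for Clock/Bmal1 and blue for Clock/Bmal1DN. In the Stc2 panel the red lines rise in both cell types, from 4.58 to 18.9 CPM in ESC clone 1 and from 17.2 to 53.6 in iPSM clone 20.

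In iPSM, after 2 hours, Stc2 again rose, by 3.22-fold. It went from 10.1 to 34.5 CPM in clone 12 and from 17.2 to 53.6 in clone 20, while the other 6 iPSM libraries held 8.53 to 17.9 CPM. Both treated libraries lay above all others, and the share of all genes for which this holds was not computed in iPSM either. The log2 fold change was 1.69 ± 0.281 (n = 2 clones, adjusted p = 0.0141, edgeR). Without treated clone 20 it was 1.33 and did not pass (adjusted p = 0.179). Stc2 was the 1 member of 10 that passed, against 1.02% of 24805 genes (247 higher, 7 lower). Members with an unadjusted p under 0.05 numbered 2, against 5.59% of all genes, and DESeq2 called 2, among 376 genes in all.

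Vldlr went from 24.7 to 53.5 CPM in iPSM clone 12 and from 40.6 to 93.9 in clone 20, and the other 6 libraries held 28.4 to 44.8 CPM. Both treated libraries again lay above all others, with no share over all genes computed. The log2 fold change of Vldlr, 1.18 ± 0.267, did not pass (adjusted p = 0.0831, edgeR). With the clone as a block it passed at 1.16 (adjusted p = 0.000629), with DESeq2 at 1.18 (adjusted p = 0.000782), and in edgeR without treated clone 12 (1.52, 0.0145) or untreated clone 20 (1.58, 0.0109). Without treated clone 20 it was 0.715 (adjusted p = 0.848), and without untreated clone 12 it was 0.862 (adjusted p = 0.100). Gdf15 went from 0.408 to 0.530 and from 0.526 to 1.26 CPM (0.948 ± 0.519), again from few reads, 20 and 22 counts untreated and 22 and 59 with dox. Ddit3 went from 8.56 to 12.3 and from 10.3 to 11.8 CPM (0.355 ± 0.194). Both treated libraries lay above both untreated ones for Ddit3, Gdf15, Stc2 and Vldlr, 4 of 10 genes, against 13% of all genes tested.

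The other 6 genes had log2 fold changes from -0.282 (Atf4) to -0.0227 (Sesn2) in iPSM. Atf4 went from 110 to 109 CPM in clone 12 and from 197 to 144 in clone 20, and Ddit4 from 66.1 to 67.6 and from 118 to 86.9 (-0.249 ± 0.233). Asns went from 322 to 347 and from 567 to 432 CPM (-0.189 ± 0.219). In these 3 genes the untreated library of clone 20 was the highest of the 4, and without it the differences were 0.199, 0.223 and 0.275. Trib3 was at -0.150 ± 0.240 and Chac1 at -0.0276 ± 0.338. All 6 had an adjusted p of 1. The median of the 10 log2 fold changes was -0.0251, against -0.0208 over all genes, and 4 of 10 were positive. Presomitic mesoderm markers (10 genes, all with counts in every library) summed to 762 and 1098 CPM in untreated and 719 and 848 in treated Clock/Bmal1 clones, 1 of them passed (higher), and their part in these values was not tested.

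The Clock/Bmal1DN clones and the control line give the same readout with dox for the other construct and for no transgene. In ESC with Clock/Bmal1DN, Stc2 went from 5.23 to 5.42 CPM in clone 5 and from 3.83 to 8.70 in clone 6, a log2 fold change of 0.641 ± 0.304 that did not pass (adjusted p = 0.983). Clone 6 was also the DN clone with more Arntl with dox. Its fibroblast marker sum, not specific to feeder cells here, fell from 988 to 367 CPM. The part of either in the Stc2 value was not tested. Vldlr went from 1.17 to 2.76 CPM in clone 5 and from 3.96 to 3.32 in clone 6 (0.242 ± 0.571). Gdf15 went from 0.653 to 0.608 and from 1.00 to 0.332 CPM (-0.813 ± 0.469), and Ddit3 from 5.23 to 4.86 and from 7.97 to 3.79 (-0.608 ± 0.376). No member passed, against 0.00444% of genes called by edgeR. None had an unadjusted p under 0.05, against 4% of all genes, and DESeq2 called 0 members, among 7 genes in all. In iPSM with Clock/Bmal1DN, Stc2 went from 8.53 to 10.01 CPM in clone 7 and from 11.4 to 11.2 in clone 19 (0.0878 ± 0.279). Vldlr went from 29.0 to 28.4 and from 31.6 to 29.6 CPM (-0.0615 ± 0.266). Again no member passed, against 0.00403% of genes. Members with an unadjusted p under 0.05 numbered 0, against 0.641% of all genes, and DESeq2 called 0, with 1 gene called in all. In the control line, with 1 library per arm and no test, Stc2 went from 6.20 to 5.27 CPM in ESC and from 15.1 to 17.9 in iPSM, and Vldlr from 1.45 to 0.909 and from 40.3 to 44.8.

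**Figure D3:**
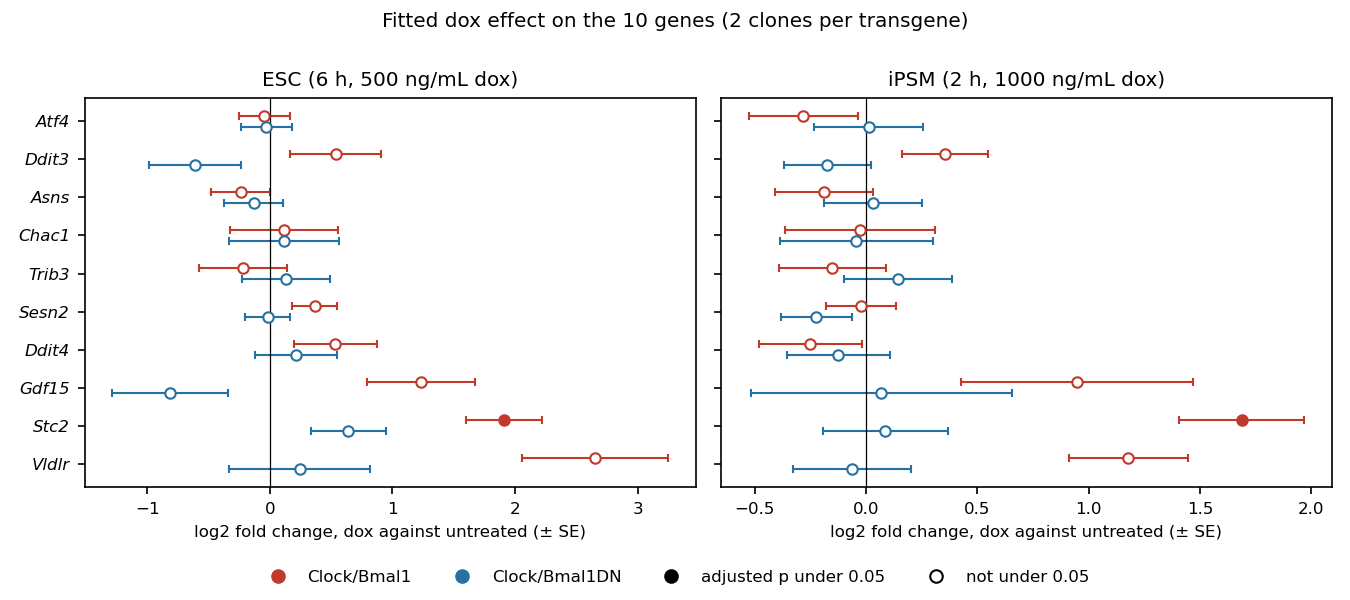
Fitted log2 fold change with dox (points, bars ± SE, 2 clones per transgene) for the 10 genes in ESC and iPSM, in red for Clock/Bmal1 and blue for Clock/Bmal1DN. Filled points have an adjusted p under 0.05, which holds for Stc2 with Clock/Bmal1 in ESC (1.91) and iPSM (1.69) and for no other point.

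The difference between the 2 transgenes was tested directly. In ESC no member passed, against 0.0578% of genes, though 3 had an unadjusted p under 0.05, against 4.76% of all genes (DESeq2 called 0 members). Stc2 rose by 1.27 ± 0.428 more on the log2 scale with Clock/Bmal1 than with Clock/Bmal1DN (adjusted p = 0.856), Vldlr by 2.41 ± 0.812 (adjusted p = 0.856) and Gdf15 by 2.05 ± 0.643 (adjusted p = 0.763). With 1 library left out, the Vldlr difference in ESC ran from 1.27 (without untreated Clock/Bmal1DN clone 6) to 3.27 (without untreated Clock/Bmal1 clone 7) and that of Stc2 from 0.988 to 1.68, none of which passed. In iPSM the difference was 1.60 ± 0.393 for Stc2 (adjusted p = 0.268) and 1.24 ± 0.376 for Vldlr (adjusted p = 0.611). No member passed there, against 0.278% of genes, with 2 at an unadjusted p under 0.05, against 3.45% of all genes, and 1, Stc2, called by DESeq2 (adjusted p = 0.00873). With the clone as a block both genes passed in iPSM, Stc2 at 1.60 (adjusted p = 0.00469) and Vldlr at 1.22 (adjusted p = 0.0153). With 1 library left out and no block, Stc2 passed without untreated clone 20 (2.04, adjusted p = 0.0211) and in none of the other 7 fits, the lowest being 1.24 without treated clone 20 (adjusted p = 1.000). Vldlr passed in none of the 8 and ran from 0.776 without treated clone 20 to 1.65 without untreated clone 20. Induced Arntl was lower in the Clock/Bmal1DN than in the Clock/Bmal1 clones of iPSM (888 and 153 against 3216 and 4702 CPM). Induced Clock was lower there too (1023 and 1058 against 1750 and 2469 CPM). The part of either in the difference was not tested.

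The Clock/Bmal1 effect did not differ between the cell types at the threshold for any gene: 0% of 26689 genes passed, 1074 had an unadjusted p under 0.05, and DESeq2 called 15 genes, none of them a member. For Stc2 the iPSM effect minus the ESC effect was -0.278 ± 0.434. For Vldlr it was -1.53 ± 0.635, and for Ddit4 -0.837 ± 0.420. Vldlr was the 1 member below 0.05 before adjustment and did not pass after it (adjusted p = 1.000).

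The rest of the pathway was read from 7 lists with 82 genes in the tables. In ESC with Clock/Bmal1 none of the 80 tested passed, against 0.422% of all genes. Of the 80, 8 had an unadjusted p under 0.05, against 7.49% of all genes. DESeq2 called 1, Cebpb, which encodes a C/EBP factor that pairs with ATF4 (edgeR 1.35 ± 0.346, adjusted p = 0.229). The median log2 fold change of the 80 was 0.00406. In iPSM 2 of 81 passed, both higher and both transcription factors, against 1.02% of all genes. Atf3, an early stress factor downstream of ATF4, rose by 1.64 ± 0.211 (adjusted p = 0.00292), and Cebpa, a C/EBP factor of differentiation, by 2.61 ± 0.409 (adjusted p = 0.00971). The Cebpa call was lost without treated clone 20 (1.93, adjusted p = 0.140). DESeq2 also called Bbc3, an apoptosis gene (edgeR 0.740 ± 0.188, adjusted p = 0.146). The median over the 81 genes was -0.0568. Atf3 also rose more with Clock/Bmal1 than with Clock/Bmal1DN in iPSM, by 1.81 ± 0.296 (adjusted p = 0.0323). That call was lost without treated Clock/Bmal1 clone 20 (1.45, adjusted p = 0.136), without any 1 of the 4 Clock/Bmal1DN libraries (adjusted p from 0.150 to 0.278) and without the control line (adjusted p = 0.0527). In ESC Atf3 stood at 1.13 ± 0.377 and did not pass (adjusted p = 0.442).

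By role, with Clock/Bmal1, the 4 eIF2 kinases had medians of -0.000622 in ESC and 0.000984 in iPSM, and the 13 subunits of eIF2, its exchange factor and its phosphatase -0.0267 and -0.0827. The 16 tRNA synthetases stood at -0.106 and -0.0721, the 15 enzymes of amino acid synthesis and one-carbon metabolism at -0.213 and -0.0833, and the 10 amino acid transporters at 0.163 and 0.154. The other factors of the response, 11 tested, had medians of 0.251 and -0.0768, and its other targets 0.0719 and 0.0969 (11 and 12 tested). Except for Atf3 and Cebpa in iPSM, no gene of these 7 lists passed in edgeR. Among the other targets in iPSM, Fgf21 had the largest value, 5.55 ± 2.35, and did not pass (adjusted p = 0.834). With Clock/Bmal1DN none of the 80 genes in ESC or the 81 in iPSM passed, and DESeq2 called 0 in both. An unadjusted p under 0.05 was found for 3 and 1 of them, against 4% and 0.641% of all genes.

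Neighbouring programmes were read in the same way, with Clock/Bmal1. Over all genes, 0.422% in ESC and 1.02% in iPSM passed, and 7.49% and 5.59% had an unadjusted p under 0.05. None of 18 genes of the unfolded protein response passed in either cell type (1 and 0 at an unadjusted p under 0.05, 0 by DESeq2), with medians of 0.126 in ESC and -0.0697 in iPSM. None of 16 p53 targets passed (0 and 3 unadjusted, DESeq2 0 and 1, Bbc3), nor any of 10 paralogs of the members, such as Stc1, Trib1 and Lrp8 (0 and 2 unadjusted, DESeq2 0), or of 15 genes of mTORC1 and its nutrient sensors (2 and 0 unadjusted, DESeq2 0). Of 18 hypoxia genes 1 rose in ESC, Ndrg1 (3.26 ± 0.466, adjusted p = 0.0236), a differentiation and stress gene. In iPSM 3 rose: Ndrg1 (4.83 ± 0.243, adjusted p = 6.61e-06), Pfkfb3 (2.01 ± 0.225, adjusted p = 0.00113) and Hk2 (1.12 ± 0.227, adjusted p = 0.0430), the latter pair encoding glycolytic enzymes. The Ndrg1 call in ESC was lost without untreated clone 1, untreated clone 7 or treated clone 1 (adjusted p from 0.145 to 0.232), and the Hk2 call without treated clone 20 (0.649, adjusted p = 0.427), untreated clone 12, any 1 of the 4 Clock/Bmal1DN libraries (0.0645 to 0.102), the untreated control library (0.0653) or the whole control line (0.07). For reference, 11 of 14 circadian E-box targets passed in each cell type, all higher, led by p-value by Ciart, Tef, Bhlhe41 and Hlf in ESC and by Ciart, Bhlhe41, Nr1d1 and Per1 in iPSM.

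**Figure D4:**
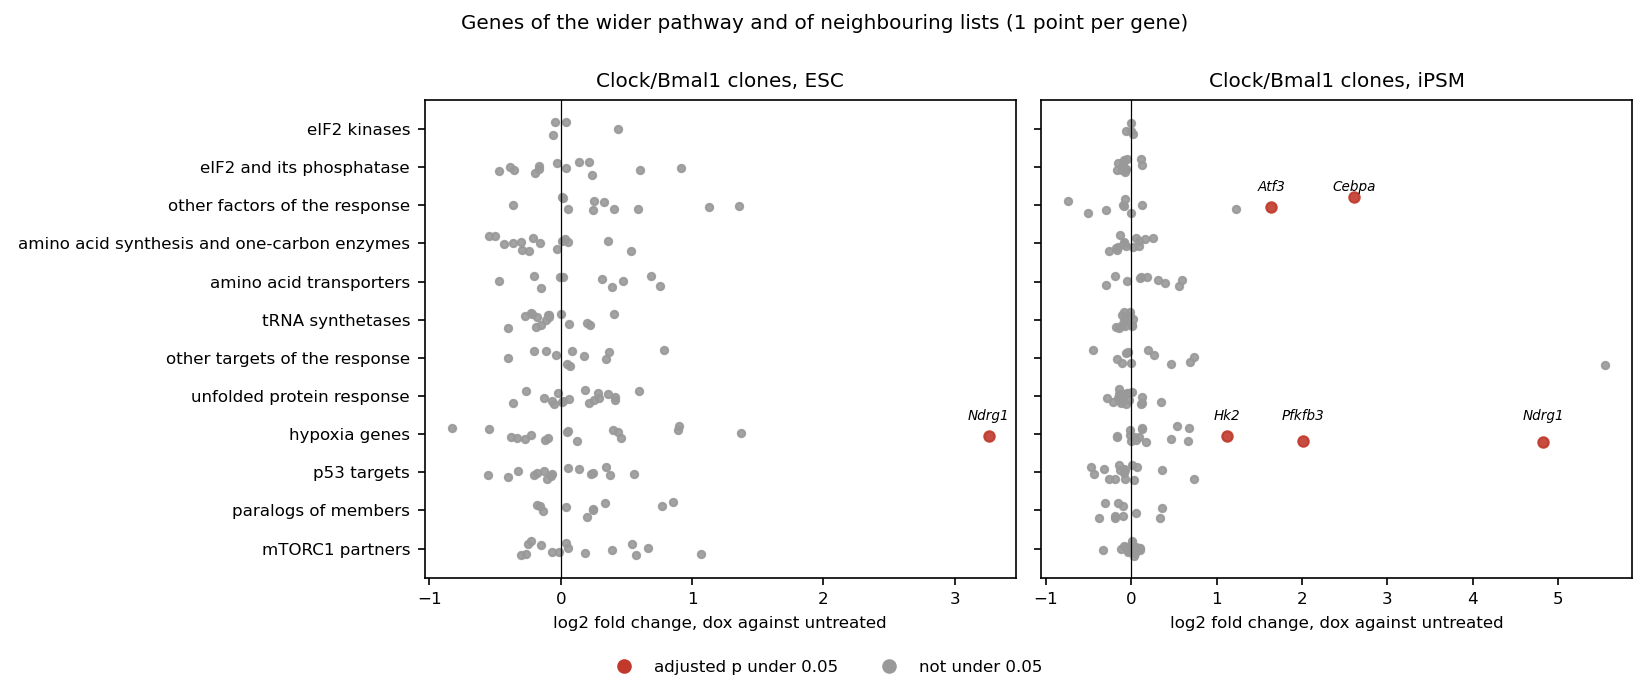
Log2 fold change with dox in the Clock/Bmal1 clones of ESC and iPSM for each gene of 12 lists, 1 point per gene, with vertical scatter only for legibility. Red points passed at an adjusted p under 0.05, Ndrg1 in ESC and Atf3, Cebpa, Hk2, Pfkfb3 and Ndrg1 in iPSM, and the unnamed grey point at 5.55 in iPSM is Fgf21.

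Across the 10 libraries of a cell type, the members did not move as 1 group. The values below are Pearson correlations of log2 CPM over libraries that share clones and treatments, given as a description. How common such values are among all gene pairs was not computed. In iPSM the 45 pairs had a median r of 0.460, with 15 pairs over 0.7 and 6 below 0. All 10 pairs among Atf4, Trib3, Asns, Chac1 and Ddit4 were over 0.7, from 0.725 (Asns with Chac1) to 0.944 (Atf4 with Trib3). The other 5 pairs over 0.7 were Stc2 with Vldlr (0.967), Ddit3 (0.844) and Gdf15 (0.762), and Vldlr with Ddit3 (0.759) and Gdf15 (0.741). Asns shows the first pattern by library: 567 CPM in untreated and 432 in treated Clock/Bmal1 clone 20 and 487 in the treated control line, against 322 to 357 in the other 7. In ESC the median r was 0.113, and 2 pairs were over 0.7, Stc2 with Vldlr (0.778) and Gdf15 with Vldlr (0.726). Atf4 and Sesn2 stood at -0.672 and Trib3 and Vldlr at -0.670 there.

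**Figure D5:**
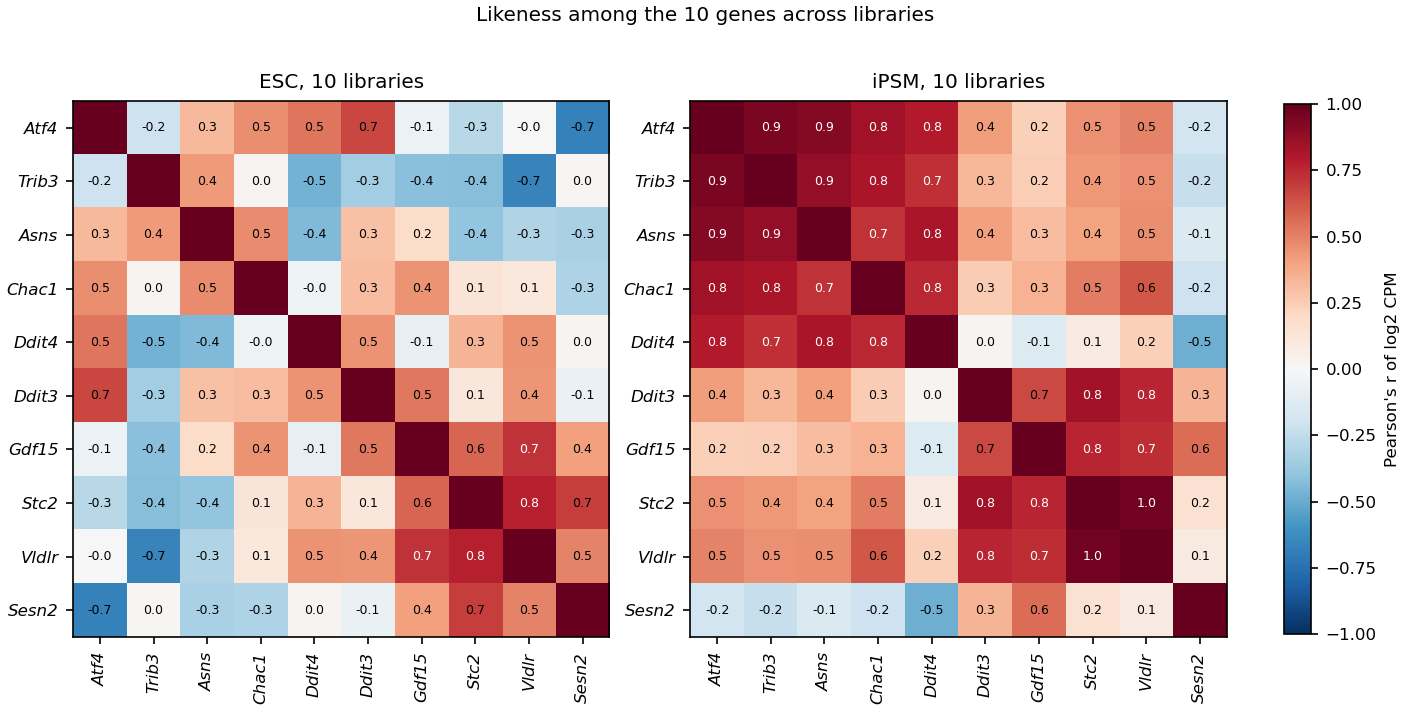
Pearson's r of log2 CPM for all pairs of the 10 genes, over 10 ESC libraries and 10 iPSM libraries, from blue (-1) to red (1). In iPSM 2 red blocks show, Atf4 to Ddit4 with 10 pairs over 0.7, and Ddit3 to Vldlr around the Stc2 and Vldlr pair at 0.967. The gene order was set by hand, with genes alike in iPSM side by side, so the blocks depend on it.

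Stc2 was also set beside every gene with a mean of at least 1 CPM. Over the 10 ESC libraries, among 13100 genes, the 5 most alike were Hapln4, a matrix link protein gene (r = 0.978), Dll3, a Notch ligand of the presomitic mesoderm (0.977), the clock repressor Per2 (0.967), the homeobox gene Onecut1 (0.961) and the muscle protein gene Smtn (0.960). Vldlr ranked 691. Over the 10 iPSM libraries, among 13203 genes, they were the deacetylase gene Hdac11 (0.977), Nrtn, which encodes neurturin (0.970), Herpud1, a gene of protein quality control in the endoplasmic reticulum and one of the listed targets of the response (0.969), Vldlr (0.967) and Ldb1, a LIM-domain cofactor gene (0.965). These genes share libraries with Stc2, including the 2 treated Clock/Bmal1 clones that stand highest.

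Counting bears on 2 of the 10 genes. Ddit3 shares 68 bases with Mars on the other strand, a row with 161022 counts against 6624 for Ddit3, and 2925 bases with its own nested row. Sesn2 shares 6089 bases with Gm12981 on its own strand (4126 counts against 54892). Reads in these stretches cannot be assigned here, and how strand was handled is not given in the sources used here. The counts run over introns, and exons make up 11.1% of the Asns gene body, 21.6% of Vldlr, 30.9% of Stc2 and 73.2% of Atf4, so unspliced RNA enters the values.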

How the data were processed

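Total RNA was sequenced as stranded, paired-end libraries, per the labels' protocols. The authors deposited 2 tables, 1 per cell type, with estimated counts in steps of 0.5 over the gene body of each transcript, per the file headers (16.9% of ESC and 19.3% of iPSM counts end in 0.5). The deposited RPKM are the same values divided by gene body length and the library total: all of them could be recomputed to within 1% plus 0.001. STAR 2.7.2a, HOMER, bcl2fastq and mm10 are named in the submitters' processing notes. How strand was handled is not given in the sources used here.

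Counts were rounded and tested with edgeR 4.0.16 (quasi-likelihood, TMM, low counts removed by group) in R 4.3.3, with Benjamini-Hochberg adjustment over all genes and a threshold of 0.05. Each cell type was fitted with 6 groups (4 residual degrees of freedom), and comparisons between cell types used 1 fit of all 20 libraries with 12 groups (8). Each SE was taken from the fold change and the F statistic (log2 value over the square root of F). The scripts were tested on simulated data. Alternatives were DESeq2 1.42.0, its size factors, no filter, the clone as a block, each library of a transgenic clone left out, and the control line left out. Of the control libraries, only the untreated iPSM one was also left out on its own. The treated and untreated libraries of a number come from the same line, so the numbers pair them (correlation of deviations 0.422, -0.0125, 0.189 and 0.0872 for Clock/Bmal1 and Clock/Bmal1DN in ESC and then in iPSM). The main fits did not use this pairing, which entered only in the alternative with the clone as a block.

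The members, the gene lists and the markers were chosen with earlier results of these data known. The rule for named genes was the 10 members, Clock and Arntl, from each list the genes that passed a dox comparison (at most the 4 with the lowest p), and the 5 genes most like Stc2. Cebpb, Bbc3 and Fgf21 fall outside it and were named after their values were seen. Of the list symbols 2 (Ero1a and Niban1) were not matched in the tables.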

Additional observations from a re-analysis of the deposited data

Results flagged for a closer look

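In iPSM the dox effect differed between the 2 transgenes, by the test of the difference itself (edgeR), for 69 of 24805 genes (0.278%). Among them were 10 of 14 circadian E-box targets and, outside that list, 3 listed genes. Ndrg1 rose more with Clock/Bmal1 than with Clock/Bmal1DN by 5.01 ± 0.318 on the log2 scale (adjusted p = 0.00016), Pfkfb3 by 2.27 ± 0.312 (adjusted p = 0.0132) and Atf3 by 1.81 ± 0.296 (adjusted p = 0.0323). The Pfkfb3 call was lost without treated Clock/Bmal1 clone 20 (adjusted p = 0.0549) and without any 1 of the 4 Clock/Bmal1DN libraries (adjusted p from 0.0644 to 0.140). None of the 10 members passed in this fit, while Stc2 and Vldlr passed with the clone as a block (adjusted p = 0.00469 and 0.0153) and without a low-count filter. Those 2 settings called 132 and 280 genes in all. Induced Arntl and Clock were lower in the Clock/Bmal1DN clones of iPSM, as given above, and their part in these differences was not tested.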

How the results depend on the processing

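The count of members called for Clock/Bmal1 in ESC was 1, and 2 with DESeq2, without a low-count filter and with the clone as a replicate block (Stc2 and Vldlr each time), and 0 to 1 with 1 library left out. In iPSM it was 1, again 2 under those 3 settings, and 0 to 2 with 1 library left out. For the difference between transgenes it went from 0 to 1 in ESC without a filter (Vldlr), and in iPSM from 0 to 1 with DESeq2, 2 without a filter, 2 with the block that pairs libraries of a clone, and 0 to 1 with 1 library left out. For iPSM against ESC effects it went from 0 to 1 without a filter (Vldlr). The block changed no other call of a member. No block was possible for untreated cells, since no clone was measured in both cell types. With Clock/Bmal1DN the count stayed 0 under the alternatives run. The size factors of DESeq2 in edgeR moved none of these counts. Over all genes, the calls for Clock/Bmal1 in ESC went from 95 to 359 with DESeq2, 537 without a filter and 158 with the block, and in iPSM from 254 to 376, 597 and 375. With Clock/Bmal1DN in ESC 1 gene became 7 with DESeq2 and 463 without a filter, and in iPSM 1 became 8 without a filter. For the difference between transgenes 13 became 130, 410 and 25 in ESC, and 69 became 154, 280 and 132 in iPSM, in the same order. For iPSM against ESC effects 0 became 15, 87 and 2. Over 58 gene and comparison results, 817 of 887 alternative values kept direction and side of the threshold, 33 fell below it, 20 rose past it and 17 changed sign, 16 of them with a library left out. Atf4 with Clock/Bmal1 in ESC was 0.00029 without the control line. With 1 library left out, log2 fold changes with Clock/Bmal1 in ESC ran from -0.33 to 0.23 for Atf4, -0.48 to 0.10 for Trib3 and -0.53 to 0.59 for Chac1. In iPSM they ran from -0.64 to 0.20 for Atf4, -0.40 to 0.15 for Trib3, -0.54 to 0.28 for Asns, -0.53 to 0.45 for Chac1, -0.14 to 0.11 for Sesn2 and -0.61 to 0.22 for Ddit4. With Clock/Bmal1DN they ran from -0.38 to 1.38 for Vldlr in ESC, and in iPSM from -0.11 to 0.31 for Stc2 and -0.32 to 0.54 for Gdf15. The iPSM effect minus the ESC effect ran from -0.62 to 0.16 for Stc2. With a library left out, the lone library of its group is assumed to vary like the other groups. The cause of these shifts was not tested. Depth limits Gdf15 most, with 9.5 to 92 counts per library.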
